A study of Homo sapiens with 24 samples.

Results

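The 9 genes described here, IER2, IER3, IER5, IER5L, CSRNP1, RHOB, SOCS3, GEM and GPR3, are immediate early response genes that encode neither FOS nor JUN proteins. They were chosen by a named list, which was drawn up with results of these libraries known, and their GENCODE v29 symbols were matched to the Ensembl identifiers of the count tables. All 9 were found among the 56898 genes of those tables that have such a symbol. The list names no comparison, but the heat comparisons were in view when it was drawn up, so the heat values below, and the differences between heat values, are a description of the members and carry no test for them. All other comparisons share libraries with the heat comparisons, so their tests are not fully independent of the choice.

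Immediate early genes are transcribed within minutes of a stimulus, without the need for new protein synthesis, because the factors that switch them on are already present in the cell. Growth factors, cytokines and many stresses, among them heat and ionising radiation, reach them through kinase cascades, and most of their transcripts are short-lived. Beside the AP-1 transcription factors, the class holds nuclear regulators, small GTPases, feedback inhibitors of signalling and receptors, and the members below are ordered by these roles.

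RNA was sequenced from spheroids of FaDu and SAS, both established cell lines of head and neck squamous cell carcinoma, grown for 4 days in agarose-coated wells. For each line there were 4 groups of 3 libraries, 24 in all. The control spheroids were untreated; RT was a single irradiation, its dose 7 Gy in FaDu spheroids and 10 Gy in SAS spheroids; HT was hyperthermia at 42.5 °C for 60 min; and HT+RT was both, with the dose of the line. All spheroids were collected 0.5 h after treatment, so each value belongs to that single time.

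Total counts per library (lowest, median and highest of 3) were 17690374, 17763912 and 21862472 in FaDu controls, 16666024, 18149790 and 23481395 in FaDu RT, 16794578, 17673528 and 18188944 in FaDu HT, and 15203484, 17221775 and 29452514 in FaDu HT+RT. In SAS they were 17797336, 18201500 and 19645956 in controls, 18556387, 19253563 and 19831372 after RT, 18976390, 20399019 and 20811396 after HT, and for HT+RT 16123061, 20935069 and 20981315. Levels are given as CPM (counts relative to the library total, with TMM scaling over the 24 libraries), as the 3 replicates in the order of their numbers or as mean ± SD (n = 3).

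The heat labels were checked on HSPA6, HSPA1A, HSPA1B and DNAJB1, heat shock genes that encode HSP70 and HSP40 chaperones. All 4 were higher in HT than in control in both lines, with log2 fold changes of 4.80 to 13.31 in FaDu and 4.23 to 11.36 in SAS, and after RT alone the FaDu values were -0.29 to 0.37 and the SAS values -0.15 to 0.95. The squamous identity was checked on EPCAM, CDH1, KRT5, KRT14, KRT17, TP63 and SFN, whose summed level was 9410 to 9870 CPM in FaDu controls and 3950 to 4260 CPM in SAS controls. Markers of leukocytes, endothelium and fibroblasts (8 genes) summed to 42.4 to 52.2 CPM in FaDu controls and 5.02 to 5.75 CPM in SAS controls, with COL1A1, a collagen chain, the most abundant of them in FaDu. PTPRC, CD3E and COL3A1, which define leukocytes, T cells and fibroblasts, had mean levels of at most 0.147 CPM in every group. The remaining markers apart from COL1A1 were higher. Their highest group means were 2.60 CPM for VWF and 1.23 CPM for PECAM1 in FaDu controls, 2.31 CPM for CD68 in FaDu HT and 0.496 CPM for PDGFRB in SAS RT. In SAS the sum was 19.7 to 34.3 CPM after HT, of which 2.95 to 3.25 CPM remained without COL1A1, whose log2 fold change was 4.18 (SE 0.28) there and 0.39 in FaDu. The other 2 of the 3 marker genes tested in SAS HT were not altered, and the part of these markers in the members' changes was not tested.

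A set of libraries stood apart before any comparison of groups. In FaDu, replicate 1 differed from replicates 2 and 3 in all 4 groups, with a chi-square per gene of 15.1 to 22.0 against 3.51 to 5.09 between replicates 2 and 3, and SAS pairs gave 4.61 to 11.8. The members took part in this within FaDu RT, where replicate 1 was 2.82 times the mean of the other 2 libraries for SOCS3, 2.56 times for IER2, 2.35 times for IER3, 2.16 times for RHOB, 1.63 times for CSRNP1 and 1.53 times for IER5L. IER5, GEM and GPR3 were at 1.23 to 1.29 times. Where values of the members moved most with these libraries, both values are given; leaving FaDu replicate 1 out of every group was chosen after seeing the data.

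The genes share a compact structure. In GENCODE v29, on GRCh38, the 9 spans ran from 1356 bp for IER3 to 13098 bp for GEM, against a median of 27107 bp over 19951 protein-coding genes, of which 25.9% span less than 10 kb. IER5, IER5L and RHOB have 1 exon in their longest transcript, as do 4.91% of protein-coding genes; IER2, IER3, SOCS3 and GPR3 have 2, and CSRNP1 and GEM have 5, against a median of 8. Genes annotated on the opposite strand overlap IER2, IER3, IER5L and CSRNP1. Those over IER2, IER3 and IER5L held 0 to 61 counts in all libraries together, against 39793, 43504 and 16937 for the members, and those over CSRNP1 are not in the tables. Whether the counting took account of strand is not stated in the material used here. These counts therefore do not show how reads in the overlaps were assigned.

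Promoter windows from RefSeq (GRCh38.p14, 250 bases before to 50 after a transcription start) were used for 7 of 9 members, 9 windows in all. IER3 has none in that set. No window of GEM was included in the search, so whether its promoter holds these motifs was not tested. The windows were searched on both strands for a heat shock element (3 alternating GAA and TTC units 2 bases apart), the cyclic AMP response element (CRE) TGACGTCA, the AP-1 site TGANTCA, the STAT site, the CArG box of SRF and the NF-kappaB site. Among all 35114 windows, 0.49% hold the heat shock element, 1.85% the CRE, 7.71% the AP-1 site, 7.66% the STAT site, 1.29% the CArG box and 11.3% the NF-kappaB site. The members' windows held 4 matches in 2 of 9 windows: 1 CRE from 36 to 29 bases before the start and 1 AP-1 site from base 2 to base 8 after it for GPR3 (chr1:27392372-27392671, plus strand), and 2 overlapping NF-kappaB sites from 169 to 159 bases before the start for CSRNP1 (chr3:39153542-39153841, minus strand, the second of its 2 windows). IER5 (chr1:181088450-181088749, plus strand), RHOB (chr2:20446824-20447123, plus strand) and IER2 (chr19:13150161-13150460, plus strand) had no match, and neither had IER5L and SOCS3. The SOCS3 windows start from sites 848 bp before and 410 bp after the GENCODE start of the gene, so neither covers that start, and the CSRNP1 window with the matches starts from a site 971 bp inside the gene. GC content was 58% to 80.7% in the members' windows, with a median of 58.7% over all windows. The 5 windows below are printed because they carry the matches (GPR3 and CSRNP1) or belong to members with contrasting heat values (IER5, RHOB and IER2); capitals mark the matched bases.
GPR3: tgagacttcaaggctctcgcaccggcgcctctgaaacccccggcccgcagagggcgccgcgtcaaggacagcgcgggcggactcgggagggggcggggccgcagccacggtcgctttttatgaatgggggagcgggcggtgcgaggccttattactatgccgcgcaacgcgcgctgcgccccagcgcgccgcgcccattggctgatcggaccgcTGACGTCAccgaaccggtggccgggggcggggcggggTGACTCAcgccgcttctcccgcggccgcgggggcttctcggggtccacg
CSRNP1: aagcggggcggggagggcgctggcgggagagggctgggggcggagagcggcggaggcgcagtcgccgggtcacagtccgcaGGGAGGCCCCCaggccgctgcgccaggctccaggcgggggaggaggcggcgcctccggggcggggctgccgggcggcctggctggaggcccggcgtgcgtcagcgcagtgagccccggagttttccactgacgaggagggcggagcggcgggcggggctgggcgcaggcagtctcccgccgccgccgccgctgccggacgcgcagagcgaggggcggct
IER5: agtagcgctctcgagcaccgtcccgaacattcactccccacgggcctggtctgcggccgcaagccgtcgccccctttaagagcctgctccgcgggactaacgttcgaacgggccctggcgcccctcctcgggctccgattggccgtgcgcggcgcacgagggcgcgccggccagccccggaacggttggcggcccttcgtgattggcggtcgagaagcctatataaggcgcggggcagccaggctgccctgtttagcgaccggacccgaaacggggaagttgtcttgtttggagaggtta
RHOB: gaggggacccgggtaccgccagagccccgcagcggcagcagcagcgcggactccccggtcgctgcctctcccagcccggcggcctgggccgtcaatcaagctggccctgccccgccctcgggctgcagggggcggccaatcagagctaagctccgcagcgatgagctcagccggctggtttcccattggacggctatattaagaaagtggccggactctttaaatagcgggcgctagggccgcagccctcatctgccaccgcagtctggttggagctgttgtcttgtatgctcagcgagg
IER2: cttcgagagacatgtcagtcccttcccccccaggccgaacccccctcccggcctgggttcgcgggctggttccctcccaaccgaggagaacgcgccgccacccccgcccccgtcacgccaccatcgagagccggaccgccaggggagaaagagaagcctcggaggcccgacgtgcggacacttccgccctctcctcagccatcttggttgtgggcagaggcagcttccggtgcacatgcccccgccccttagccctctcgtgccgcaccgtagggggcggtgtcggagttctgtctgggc

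The untreated lines differed in 4 of the 9 members. In the control spheroids, per kb of merged exon so that genes can be set side by side, IER3 was the most abundant member in both lines, at 28.6 ± 8.51 CPM per kb in FaDu and 104 ± 10.6 in SAS. IER5 was at 11 ± 1.31 and 45.8 ± 5.37, IER2 at 12.1 ± 1.57 and 23.1 ± 3.435, SOCS3 at 11.5 ± 1.3 and 12.5 ± 2.5, and IER5L at 11.05 ± 2.3 and 13.6 ± 1.16 CPM per kb. GEM was the least abundant in both, at 0.5205 ± 0.1585 and 0.06405 ± 0.0229 CPM per kb, with GPR3 (1.31 ± 0.237 and 0.859 ± 0.59) and, in FaDu, CSRNP1 (1.62 ± 0.373) near it. Tested with edgeR's quasi-likelihood test across 15810 genes, where a gene counts as altered if its adjusted p is below 0.05 and its log2 fold change beyond 1 in either direction, CSRNP1 (-2.68 (SE 0.16), adjusted p = 7.14e-08), IER5 (-2.03 (SE 0.11), adjusted p = 3e-08) and IER3 (-1.84 (SE 0.16), adjusted p = 1.88e-06) were lower in FaDu. GEM was higher in FaDu, at 3.00 (SE 0.44) with an adjusted p = 8.87e-05. Of all genes, 38.1% were altered between the lines, 21.2% higher and 16.9% lower in FaDu, so 4 of 9 is near the background. IER2 (-0.91, adjusted p = 3.73e-05) and RHOB (-0.99, adjusted p = 8.03e-05) passed the p threshold with a fold change under the limit, and the 3 libraries of each line did not overlap for 6 members, against 77.8% of all genes. Leaving out SAS control replicate 1 brought IER2 (-1.02) and RHOB (-1.14) past the limit, leaving out FaDu control replicate 3 brought RHOB past it (-1.06), and leaving out SAS control replicate 2 gave GPR3 1.28 (adjusted p = 0.00917, range over the alternatives 0.00917 to 0.52).

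IER2 and IER3 were higher with heat in FaDu and lower with heat in SAS. IER2 encodes a nuclear protein induced by growth factors that takes part in transcriptional regulation. Its FaDu libraries read 41.4, 31.9 and 38.1 CPM in controls, 156, 58.8 and 63.2 after RT, 174, 154 and 130.2 after HT, with 152.5, 115 and 110.3 for HT+RT. In SAS they read 60.3, 71.2 and 81.4 in controls, 113, 101 and 102.5 after RT, 56.5, 50.95 and 46.6 after HT, with 57.4, 56.75 and 51.5 for HT+RT. All FaDu libraries with heat lay above all FaDu controls, and all SAS libraries with heat lay below all SAS controls. The log2 fold change of HT against control was 2.06 (SE 0.12) in FaDu and -0.46 (SE 0.11) in SAS. In the order of group means, FaDu HT (153 ± 21.7), FaDu HT+RT (126 ± 23.1), SAS RT (106 ± 6.68), FaDu RT (92.8 ± 55.1), SAS control (71 ± 10.55), SAS HT+RT (55.2 ± 3.22), SAS HT (51.3 ± 4.94) and FaDu control (37.1 ± 4.82 CPM), neighbours overlapped in 5 of 7 places; SAS control was clear of SAS HT+RT, and SAS HT of FaDu control.

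IER3 encodes a stress-inducible regulator of apoptosis and of ERK signalling, and its order was different. In FaDu the libraries read 52, 33.9 and 30.5 CPM in controls, 132, 53.7 and 58.9 after RT, 108, 107 and 108 after HT, with 105, 116.5 and 106 for HT+RT. In SAS they read 133, 158 and 133 in controls, 202, 182 and 171 after RT, 50.03, 50.5 and 40.2 after HT, with 50.6, 58.95 and 47.2 for HT+RT. SAS spheroids with heat were at about the level of untreated FaDu, and the 3 FaDu HT libraries, which lay within a CPM of each other, were well below untreated SAS. HT against control gave 1.50 (SE 0.17) in FaDu and -1.59 (SE 0.10) in SAS, and HT+RT against control 1.52 (SE 0.17) and -1.43 (SE 0.09). The groups ran from SAS RT (185 ± 15.8) through SAS control (141 ± 14.3), FaDu HT+RT (109 ± 6.32), FaDu HT (107.5 ± 0.244), FaDu RT (81.6 ± 43.95), SAS HT+RT (52.3 ± 6.04) and SAS HT (46.9 ± 5.82) to FaDu control (38.8 ± 11.5 CPM), with SAS RT and SAS control the groups clear of the next.

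IER5 had the highest mean level of the members in every group with heat, per kb of exon. In FaDu HT+RT its 125.7 ± 9.83 CPM per kb was within the spread of SOCS3, at 122 ± 7.94. IER5 encodes a regulator that joins HSF1, the transcription factor of the heat shock genes, to the phosphatase PP2A. FaDu libraries read 51.6, 40.7 and 45.9 CPM in controls, 66.7, 51.2 and 52.8 after RT, 729, 629.5 and 610.2 after HT, with 568, 486 and 526 for HT+RT. SAS libraries read 206, 203 and 166 in controls, 252, 228 and 195 after RT, 1895, 1722 and 1739 after HT, with 1939, 1684 and 1744 for HT+RT. The libraries with heat lay far above those without in each line, and the SAS controls lay above all FaDu libraries without heat. HT against control gave 14.4-fold in FaDu, log2 3.85 (SE 0.11), and 9.34-fold in SAS, log2 3.22 (SE 0.08). SAS HT+RT (1789 ± 133) and SAS HT (1785 ± 95.5) headed the order and overlapped, followed by FaDu HT (656 ± 63.7), FaDu HT+RT (527 ± 41.2), SAS RT (225 ± 28.4), SAS control (192 ± 22.5), FaDu RT (56.9 ± 8.535) and FaDu control (46.05 ± 5.49 CPM); RT and control overlapped in each line and the remaining neighbours did not.

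Its relative IER5L moved least, with a ratio of 2.34 between the highest and the lowest library, against 47.7 for IER5. Group means ran from SAS HT+RT (52.3 ± 6.03), SAS HT (45.9 ± 5.71), SAS control (36.8 ± 3.135), FaDu HT (34.2 ± 9.835), SAS RT (34.1 ± 3.35), FaDu RT (33.8 ± 9.05) and FaDu HT+RT (30.3 ± 7.65) to FaDu control (29.97 ± 6.25 CPM), and neighbours overlapped in 6 of 7 places. In each FaDu group replicate 1 was the highest library, at 37.1, 25.3 and 27.5 CPM in controls and 45.1, 31.4 and 26.1 after HT. The SAS libraries with heat lay above the SAS controls, with a log2 fold change of 0.32 (SE 0.10) for HT and 0.51 (SE 0.10) for HT+RT.

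CSRNP1, a cysteine- and serine-rich nuclear protein that binds DNA and activates transcription, started low in FaDu. Its FaDu libraries read 4.36, 6.58 and 4.69 CPM in controls, 22.8, 13.6 and 14.4 after RT, 52, 60 and 80.5 after HT, with 68.9, 113 and 110.1 for HT+RT. In SAS they read 29.5, 36.4 and 36 in controls, 56.1, 73.6 and 56.3 after RT, 77.7, 90.7 and 84.7 after HT, with 104, 109 and 101 for HT+RT. Every treated group lay above its control without overlap in both lines, and the lines, far apart when untreated, overlapped after HT+RT. HT against control gave 12.5-fold in FaDu, log2 3.65 (SE 0.21), and 2.49-fold in SAS, log2 1.32 (SE 0.09). The order was SAS HT+RT (105 ± 3.75), FaDu HT+RT (97.3 ± 24.6), SAS HT (84.3 ± 6.505), FaDu HT (64.2 ± 14.7) and SAS RT (62 ± 10.1), each overlapping the next, then SAS control (34 ± 3.89), FaDu RT (16.9 ± 5.11) and FaDu control (5.21 ± 1.2 CPM), each clear of its neighbours.

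RHOB and GEM encode small GTPases. RHOB is a stress-inducible protein of endosomes, and its FaDu libraries read 15.25, 14.6 and 17.35 CPM in controls, 72.1, 33.4 and 33.4 after RT, 102, 88.1 and 93.5 after HT, with 147, 138 and 137.5 for HT+RT. In SAS they read 25.3, 38.4 and 32.3 in controls, 51.7, 55.9 and 49 after RT, 39.2, 51 and 58.2 after HT, with 61.8, 74.9 and 80.1 for HT+RT. FaDu HT+RT was above FaDu HT, and FaDu HT above all FaDu RT libraries; in SAS the RT and HT libraries overlapped. HT against control gave 2.60 (SE 0.09) in FaDu and 0.64 (SE 0.16) in SAS, and HT+RT against control gave 3.19 (SE 0.08) and 1.19 (SE 0.14). The means ran in the order FaDu HT+RT (141 ± 5.21), FaDu HT (94.5 ± 7.02), SAS HT+RT (72.3 ± 9.42), SAS RT (52.2 ± 3.51), SAS HT (49.5 ± 9.58), FaDu RT (46.3 ± 22.35), SAS control (32 ± 6.56) and FaDu control (15.7 ± 1.44 CPM), and neighbours overlapped in 3 of 7 places, all between SAS RT and SAS control.

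GEM (chromosome 8, 94249253-94262350, minus strand) encodes a GTPase of the RGK family, which lowers the activity of voltage-gated calcium channels, and was nearly silent without heat. Counts were 35, 20 and 31 in FaDu controls, 21, 13 and 25 after RT, 150, 372 and 595 after HT, with 183, 502 and 1004 for HT+RT. In SAS they were 3, 2 and 4 in controls, 5, 3 and 3 after RT, 155, 163 and 234 after HT, with 136, 133 and 183 for HT+RT. All libraries with heat lay above all libraries without it, and in FaDu replicate 1 was the lowest of each heated group. HT against control gave a log2 fold change of 3.88 (SE 0.48) in FaDu and 5.85 (SE 0.32) in SAS, the SAS value resting on 9 control counts in 3 libraries. Without FaDu replicate 1 the FaDu value was 4.47 (SE 0.23) for HT and 4.79 for HT+RT, against 4.20 with it. FaDu HT+RT (24.6 ± 12.4), FaDu HT (19.8 ± 11.3), SAS HT (10.1 ± 2.25) and SAS HT+RT (8.66 ± 1.47) overlapped in that order and were followed by FaDu control (1.38 ± 0.42), FaDu RT (0.916 ± 0.2005), SAS RT (0.201 ± 0.0705) and SAS control (0.17 ± 0.0608 CPM).

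SOCS3, the inhibitor of JAK-STAT signalling that acts on the receptors of the IL6 family, was at about the same level in both untreated lines. FaDu libraries read 35.4, 28.7 and 30.2 CPM in controls, 134, 44.3 and 50.6 after RT, 298, 355 and 365 after HT, with 318, 324.5 and 358 for HT+RT. SAS libraries read 37.7, 38.4 and 26.3 in controls, 67.3, 64 and 41.7 after RT, 194, 173 and 104 after HT, with 185, 179.7 and 126 for HT+RT. Heated FaDu lay above heated SAS without overlap, and in SAS replicate 3 was the lowest library of each group. HT against control gave 11-fold in FaDu, log2 3.45 (SE 0.11), and 4.6-fold in SAS, log2 2.20 (SE 0.20). FaDu HT (339.5 ± 36) and FaDu HT+RT (333.5 ± 21.7) headed the order, then SAS HT+RT (164 ± 32.5), SAS HT (157 ± 46.8), FaDu RT (76.2 ± 49.95), SAS RT (57.7 ± 13.9), SAS control (34.1 ± 6.83) and FaDu control (31.4 ± 3.545 CPM), with overlap in 5 of 7 places.

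GPR3, a receptor that raises cyclic AMP without a bound ligand and whose window above holds the CRE, was low throughout, from 0.433 to 6.78 CPM over the 24 libraries. Its highest group was FaDu RT, and FaDu libraries read 6.78, 5.43 and 5.59 CPM after RT against 3.21, 2.86 and 2.22 in controls, 3.84, 3.7 and 2.16 after HT, with 4.575, 2.35 and 2.74 for HT+RT. FaDu RT lay above the other 3 FaDu groups without overlap. The order went on with FaDu HT (3.23 ± 0.933), FaDu HT+RT (3.22 ± 1.19), FaDu control (2.76 ± 0.501), SAS RT (2.28 ± 0.1125), SAS control (1.82 ± 1.25), SAS HT+RT (1.54 ± 0.49) and SAS HT (0.772 ± 0.31 CPM), with overlap in 5 of 7 places. In SAS, HT against control gave -1.23 (SE 0.50), with counts of 28, 56 and 13 in controls and 18, 16 and 8 after HT, and the value depended on single controls: -1.59 (SE 0.44) without SAS control replicate 3 and -0.56 (SE 0.47) without SAS control replicate 2. GPR3 was not altered there with all libraries. It was altered without SAS control replicate 3, without a filter on low counts (-1.24) and with a replicate block (-1.15), although pairing did not hold for this comparison.

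**Figure D1:**
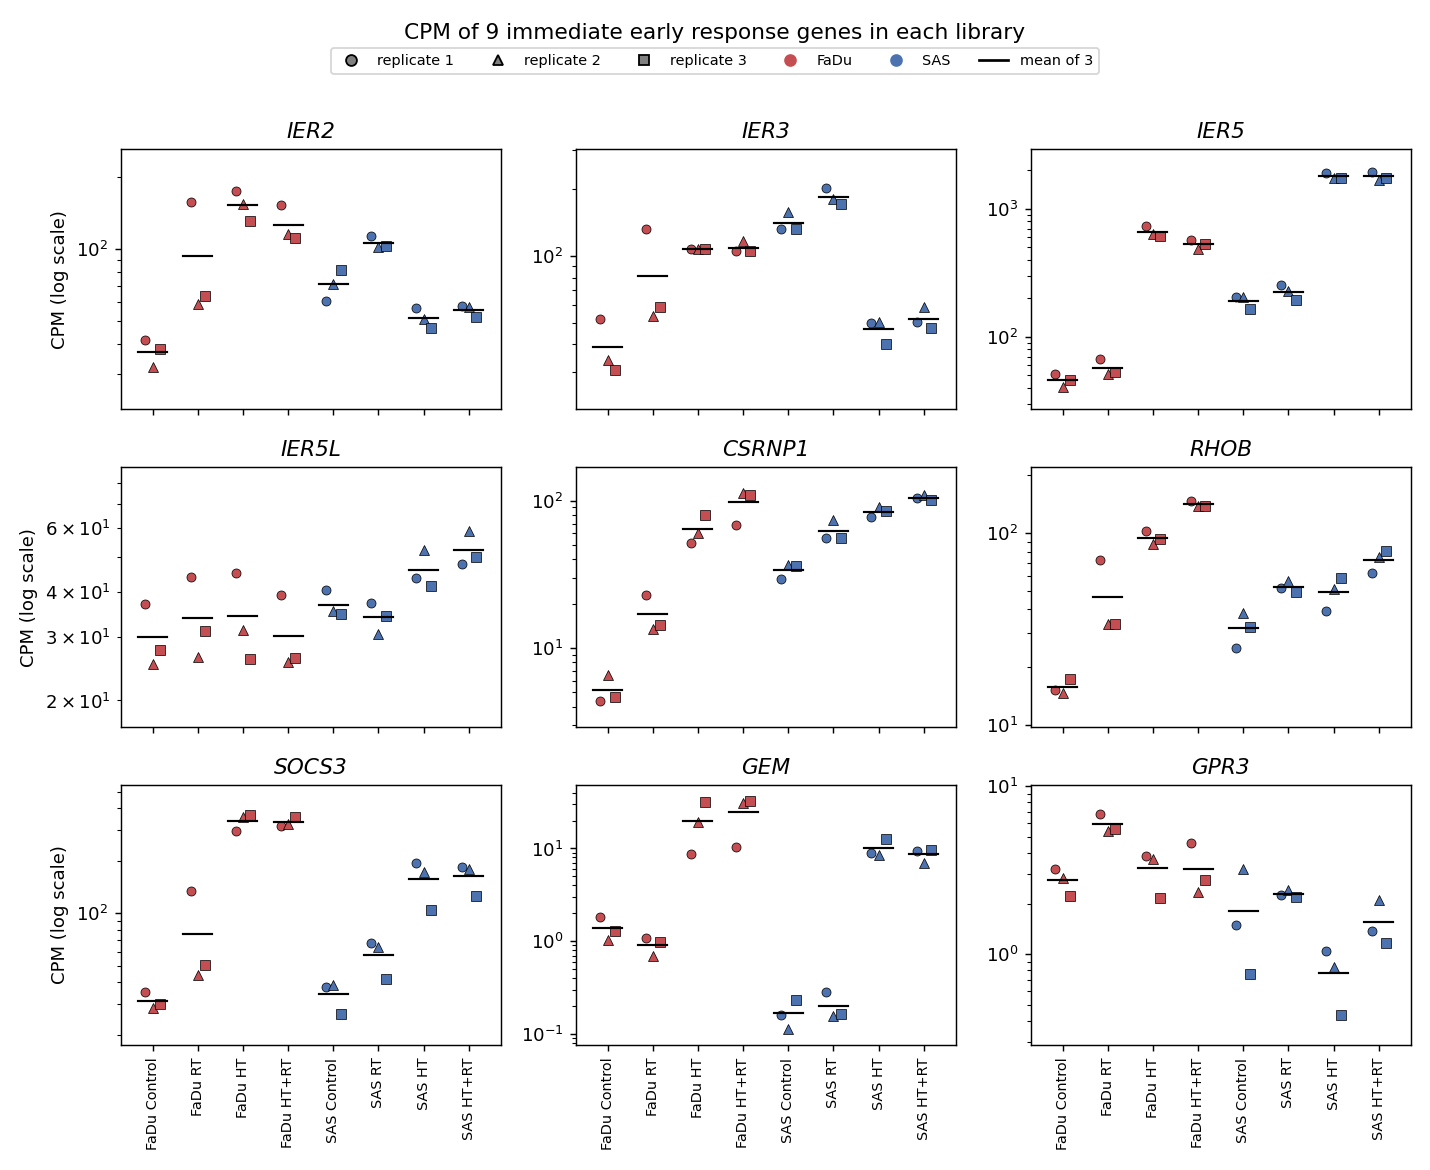
CPM of each member (log axis, its own scale per gene) in the 24 libraries, by line and treatment; symbols mark the replicate number and bars the mean of 3. Heated groups stand above their controls for IER5, CSRNP1, RHOB, SOCS3 and GEM in both lines, and below them for IER2 and IER3 in SAS.

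Across the heat comparisons, 7 of 9 members were altered in FaDu HT against control, all higher (IER2, IER3, IER5, CSRNP1, RHOB, SOCS3 and GEM), where 4.29% of all genes were higher and 0.674% lower. In SAS HT against control 4 were higher (IER5, CSRNP1, SOCS3 and GEM) and IER3 was lower, where 5.31% of all genes were higher and 0.713% lower. For HT+RT against control the counts were 7 higher in FaDu (all genes 5.08% higher, 0.642% lower) and, with RHOB added, 5 higher and 1 lower in SAS (all genes 5.76% and 0.596%); these comparisons share their controls with those of HT. For HT+RT against RT, 5 were higher in FaDu (all genes 4.76% and 0.629%) and 3 higher and 1 lower in SAS (all genes 5.71% and 0.893%). Because the members were listed with these comparisons in view, nothing is read from the counts. In whole spheroids a change in the share of responding cells and a change in RNA per cell cannot be told apart.

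Against RT instead of control, the FaDu values of IER2, IER3, IER5, CSRNP1, RHOB and SOCS3 were smaller. In FaDu, HT+RT against RT gave 3.24 (SE 0.11) for IER5, 4.77 (SE 0.49) for GEM, 2.56 (SE 0.24) for CSRNP1, 2.16 (SE 0.37) for SOCS3, 1.64 (SE 0.27) for RHOB, 0.47 (SE 0.34) for IER2 and 0.45 (SE 0.30) for IER3. Of these, the values of SOCS3, IER2, IER3, CSRNP1, RHOB and GEM moved by more than that of IER5 (3.30) when replicate 1 was left out: without FaDu replicate 1 in either group SOCS3 was at 2.87 (SE 0.07), IER2 at 0.91 and IER3 at 0.996, and with FaDu RT replicate 1 alone left out SOCS3 was at 2.84 and IER2 at 1.07. GPR3 was at -0.86 (SE 0.25), and at -1.07 (SE 0.20) without FaDu replicate 1 and -1.17 without FaDu HT+RT replicate 1. In SAS the same comparison gave 5.39 (SE 0.30) for GEM, 2.99 (SE 0.09) for IER5, 1.50 (SE 0.17) for SOCS3 and -1.83 (SE 0.09) for IER3, with IER2 at -0.94 (SE 0.07).

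**Figure D2:**
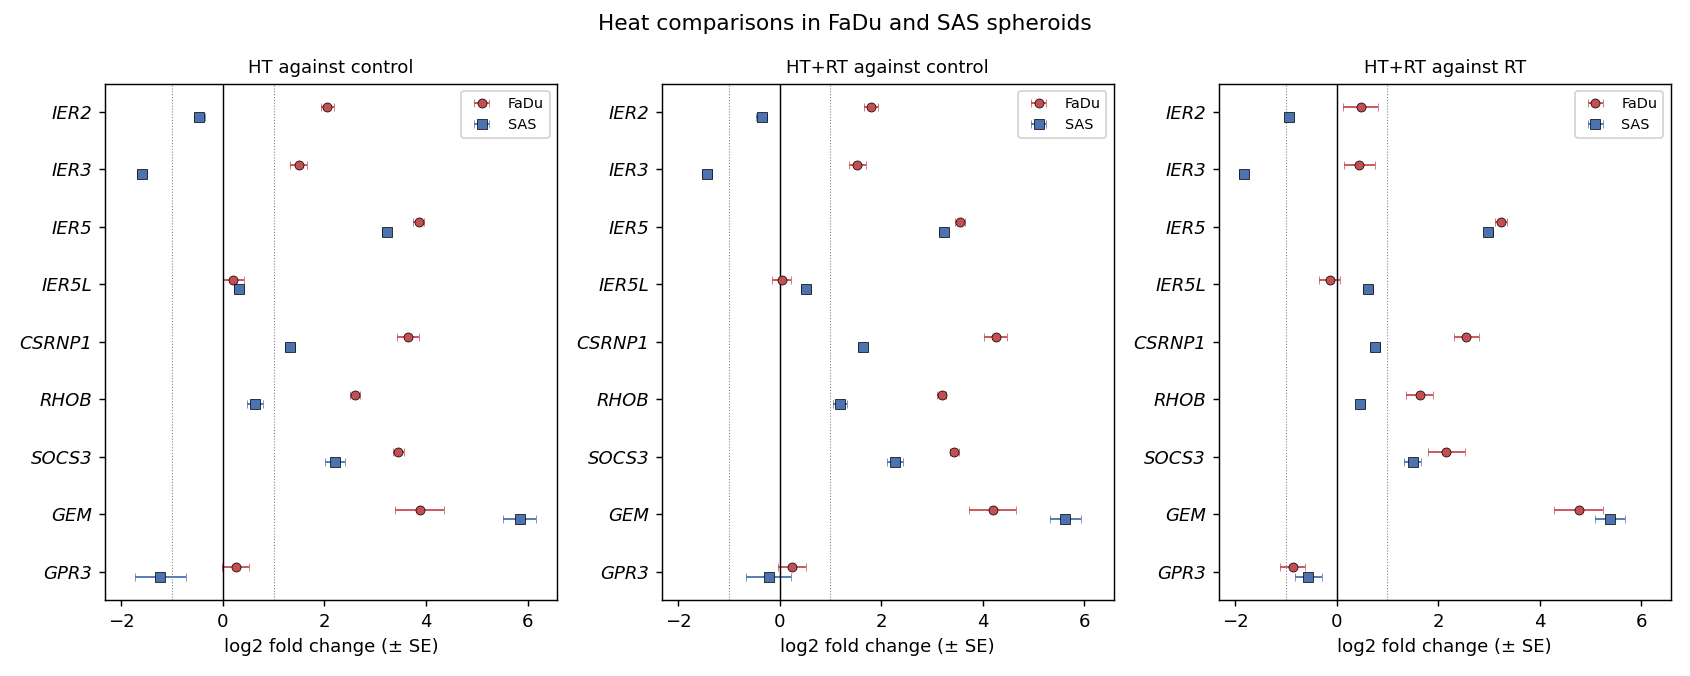
Log2 fold changes (points) with standard errors (bars) of the 9 members in the 3 heat comparisons of FaDu (circles) and SAS (squares); dotted lines mark an absolute log2 fold change of 1. IER5 and GEM were over 2 in every panel for both lines, whereas IER3 lay on opposite sides of 0 in FaDu and SAS.

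RT alone was compared with control, and here the calls depended on the fit. Per the paper, plates were irradiated at room temperature, and no sham irradiation of controls is described. Irradiation and its handling can therefore not be told apart. The controls are those of the heat comparisons in view when the members were listed. The FaDu RT libraries of 6 members, IER2, IER3, CSRNP1, RHOB, SOCS3 and GPR3, lay above the 3 controls without overlap, a pattern that 10.6% of all genes showed in either direction. The log2 fold changes were 1.70 (SE 0.23) for CSRNP1, 1.55 (SE 0.28) for RHOB, 1.32 (SE 0.34) for IER2, 1.27 (SE 0.37) for SOCS3, 1.11 (SE 0.19) for GPR3 and 1.07 (SE 0.34) for IER3. IER5 was at 0.30 (SE 0.12), IER5L at 0.17 and GEM at -0.58 (SE 0.31). With edgeR's quasi-likelihood test 0 of 9 were altered (adjusted p from 0.119 for CSRNP1 to 1 for GEM), against 0.00643% of all genes. At an unadjusted p under 0.05 there were 7 of 9 members, against 5.09% of all genes. DESeq2's Wald test called 3, CSRNP1, RHOB and GPR3, against 0.0707% of all genes, with an adjusted p for RHOB of 0.0182 (range over the alternatives 1.56e-49 to 1).

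The replicates of FaDu RT and control varied together by their number, with correlations of 0.254 to 0.628 across genes between libraries of the same number after removal of the group means. With the replicate number as a block, 6 members were altered, all higher after RT, against 0.18% of all genes. The blocked log2 fold changes were 1.67 (SE 0.15) for CSRNP1, 1.46 (SE 0.13) for RHOB, 1.19 (SE 0.12) for IER2, 1.12 (SE 0.13) for SOCS3, 1.11 (SE 0.17) for GPR3 and 1.001 (SE 0.08) for IER3. Their adjusted p ran from 2.93e-10 for IER3 (range over its alternatives 3.9e-34 to 1) to 6.5e-05 for GPR3 (range 5.22e-05 to 0.834). Leaving FaDu replicate 1 out of both groups gave 3 altered members, where 15 of 16062 genes were altered, with 1.33 (SE 0.14) for CSRNP1, 1.05 (SE 0.10) for RHOB and 1.12 (SE 0.21) for GPR3, while IER3 (0.80), IER2 (0.79) and SOCS3 (0.68) stayed under the fold limit. Leaving out FaDu RT replicate 1 alone gave 2, where 8 of 15924 genes were altered, CSRNP1 (1.43, adjusted p = 0.0149, range 8.32e-28 to 0.8) and RHOB (1.08, adjusted p = 0.00402).

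In SAS, RT libraries of 5 members, IER2, IER3, CSRNP1, RHOB and SOCS3, lay above the controls without overlap, where 11.1% of all genes did not overlap. The log2 fold changes were 0.87 (SE 0.12) for CSRNP1, 0.76 (SE 0.18) for SOCS3, 0.71 (SE 0.13) for RHOB, 0.58 (SE 0.10) for IER2 and 0.39 (SE 0.08) for IER3. CSRNP1 passed the p threshold (adjusted p = 0.0329) with a fold change under the limit. By edgeR 0 of the 8 tested members were altered, against 0.0272% of all genes; 6 had an unadjusted p under 0.05, against 5.68% of all genes, and DESeq2 called 0. Pairing by number held here too (correlations of 0.257 to 0.378), and with a replicate block all members stayed under the fold limit, with adjusted p of 5.07e-08 for CSRNP1 (range over the alternatives 4.06e-19 to 0.174), 1.04e-07 for SOCS3 (range 7.04e-14 to 1) and 4.41e-06 for RHOB (range 1.45e-11 to 0.537). IER2 (adjusted p of 2.1e-05), IER3 (1.7e-04) and IER5 (0.00413) also passed the p threshold with the block, although each was above 0.05 in some alternatives. GEM was not tested in SAS RT against control, since 2 to 5 counts per library are too few. The dose was also higher in SAS, so line and dose cannot be told apart in any comparison of the RT groups.

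**Figure D3:**
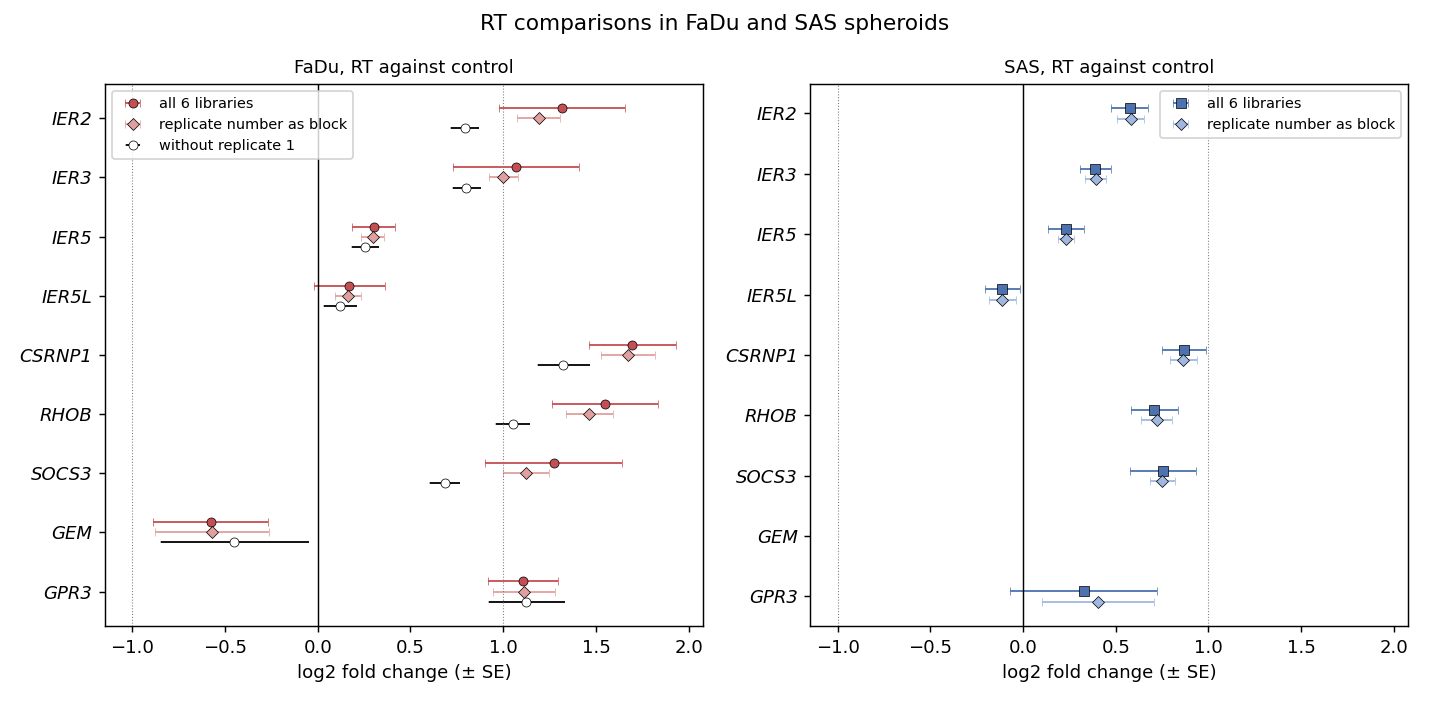
Log2 fold changes of RT against control with standard errors (bars) in FaDu (left) and SAS (right), fitted with all libraries, with a replicate block and, in FaDu, without replicate 1; dotted lines mark an absolute value of 1. In FaDu the block narrowed the bars of IER2, IER3, RHOB and SOCS3, and leaving out replicate 1 lowered their values.

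Adding RT to heat, HT+RT against HT, altered 0 of 9 members by edgeR in FaDu and 0 of 9 in SAS, with 0% of all genes altered in each line and 0 members by DESeq2 in each. Unadjusted p values under 0.05 numbered 3 members in FaDu (2.24% of all genes) and 3 in SAS (4.39% of all genes). RHOB was higher without overlap in both lines, at 0.58 (SE 0.07) in FaDu (adjusted p = 0.268) and 0.54 (SE 0.13) in SAS (adjusted p = 0.421). IER5 was lower without overlap in FaDu (-0.32 (SE 0.09)) and at 0.00 (SE 0.06) in SAS. CSRNP1 was at 0.60 (SE 0.21) in FaDu, with overlap, and 0.31 (SE 0.07) in SAS, without, and GPR3 was at 1.003 (SE 0.38) in SAS, without overlap. Libraries of the same number varied together (correlations of 0.358 to 0.69 in FaDu and 0.226 to 0.406 in SAS). With a replicate block RHOB had an adjusted p of 9.41e-08 in FaDu (range over the alternatives 9.41e-08 to 1) and 7.42e-05 in SAS (range 3.96e-08 to 1), under the fold limit at 0.58 and 0.55. CSRNP1 had 1.73e-05 in FaDu (range 1.94e-07 to 1) and 0.0027 in SAS (range 0.0027 to 1), and in FaDu IER5 had 6.01e-05 (range 6.01e-05 to 1) and IER2, lower at -0.28, had 0.00189 (range 0.00189 to 1), also under it. Groups did not overlap for 2 of 9 members in FaDu (7.4% of all genes) and 3 of 9 in SAS (9.69% of all genes).

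The difference between the lines in the heat response is the FaDu log2 fold change minus that of SAS. It is built from the heat values in view when the members were listed, so it is described here without p values, and nothing is read from the counts. Without RT, 5 of 9 members were altered in the fit over all genes and all 5 were higher in FaDu, beside 2.74% of all genes altered, 1.25% higher and 1.49% lower. IER3 differed by 3.11 (SE 0.21), IER2 by 2.55 (SE 0.18), CSRNP1 by 2.36 (SE 0.24), RHOB by 1.99 (SE 0.22) and SOCS3 by 1.28 (SE 0.26). SOCS3 was no longer among them when all 8 groups were fitted together (1.24). IER5, with its large response in both lines, differed by 0.66 (SE 0.14), under the fold limit. IER5L was at -0.09, GPR3 at 1.51 (SE 0.60) and GEM at -1.94 (SE 0.90). GEM was at -2.49 without FaDu HT replicate 3, at -1.99 without a filter on low counts, both altered, and at -1.35 (SE 0.62) without FaDu replicate 1 in either FaDu group. GPR3 ran from 0.84 without SAS control replicate 2 to 1.83 without SAS control replicate 3, and was altered with a replicate block (1.44), although pairing did not hold here, and without a filter on low counts (1.47).

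With RT in both arms, HT+RT against RT in FaDu minus the same in SAS, 4 of 9 members were altered, all higher in FaDu, beside 3.36% of all genes, 1.34% higher and 2.02% lower. They were IER3 (2.26 (SE 0.34)), CSRNP1 (1.78 (SE 0.27)), IER2 (1.39 (SE 0.38)) and RHOB (1.15 (SE 0.31)). With a replicate block, pairing by number having held here, IER2 was at 1.51 (SE 0.18) and RHOB at 1.23 (SE 0.21). Without the block IER2 was no longer altered in 11 of the 12 fits that left out 1 library each, all but that without FaDu RT replicate 1, which gave 2.04. RHOB was no longer altered in 8 of 12, without FaDu RT replicate 2 or 3, FaDu HT+RT replicate 2 or 3, SAS RT replicate 1 or 2, or SAS HT+RT replicate 1 or 2. SOCS3 was at 0.64 (SE 0.44), and at 1.36 and altered without FaDu RT replicate 1. Without FaDu replicate 1 in either FaDu group 5 members, and 665 of 17999 genes, were altered, IER3 at 2.80, CSRNP1 at 2.24, IER2 at 1.82, RHOB at 1.58 and SOCS3 at 1.34. IER5L was at -0.77 (SE 0.25), and at -1.002 and altered without FaDu HT+RT replicate 1.

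The response to RT alone did not pass the test of a line difference for any member: 0 of 9 were altered by edgeR and 0 by DESeq2, with 0% of all genes altered. CSRNP1 (0.83 (SE 0.27)) and RHOB (0.84 (SE 0.34)) were the 2 members with an unadjusted p under 0.05, against 2.74% of all genes. Without FaDu replicate 1 CSRNP1 was at 0.46 (SE 0.22) and RHOB at 0.35 (SE 0.19), while IER2 went from 0.74 to 0.22 and SOCS3 from 0.52 to -0.07. Pairing by number held for this comparison, and with a replicate block IER3 was at 0.615 (SE 0.114), under the fold limit, with an adjusted p of 0.0163. The other members did not pass the p threshold with the block. The heat response was also compared with and without RT within each line. This is a difference between heat values in view when the members were listed, so no member's p value is given. Nothing is read from its counts. In FaDu 0 of 9 members were altered by edgeR and 0 by DESeq2, with 0% of all genes altered. The values were negative for 8 of 9, the lowest being IER2 (-1.60 (SE 0.42)) and SOCS3 (-1.30 (SE 0.43)). IER2, IER3, IER5, CSRNP1, RHOB, SOCS3 and GPR3 had an unadjusted p under 0.05 in FaDu, beside 3.22% of all genes. Without FaDu replicate 1, left out after seeing the data, IER2 was at -1.13 (SE 0.11) and past both limits, where 5 of 17027 genes were. SOCS3 was then at -0.76, CSRNP1 at -0.66 (from -1.10) and RHOB at -0.45 (from -0.98). With a replicate block, although pairing did not hold here, IER2 was at -1.51 (SE 0.24) and past both limits. In SAS 0 of 9 were altered by edgeR and 0 by DESeq2, with 0.00632% of all genes altered. There 3 members, beside 3.97% of all genes, had an unadjusted p under 0.05. Neither the FaDu nor the SAS result at this threshold is a test, since the members were listed with the heat values of both lines in view. CSRNP1 was at -0.57 (SE 0.15), SOCS3 at -0.70 (SE 0.31) and IER2 at -0.48 (SE 0.14).

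**Figure D4:**
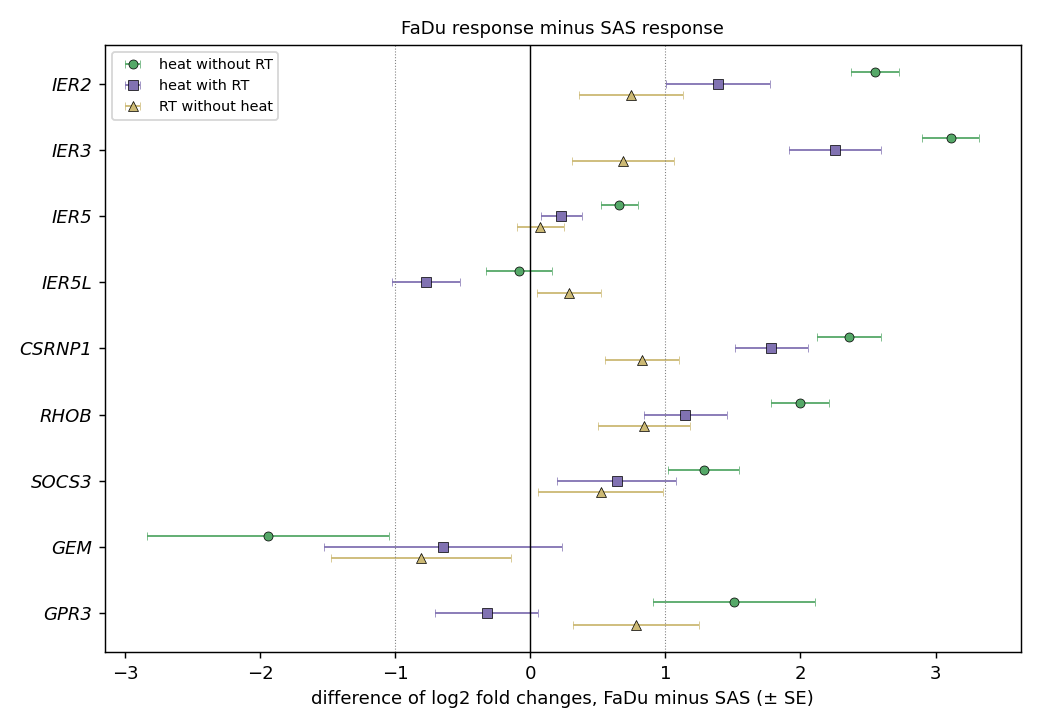
Difference between the FaDu and the SAS log2 fold change of each member for heat without RT, heat with RT and RT without heat, with standard errors (bars); dotted lines mark an absolute difference of 1. IER3, IER2, CSRNP1 and RHOB lie above 1 for heat both without and with RT.

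The genes whose 6 log2 fold changes against control (RT, HT and HT+RT in each line) lay nearest to those of a member were found among 11273 protein-coding genes by the root mean square difference. For IER2 these were JUNB (0.364) and SIK1B (0.374), for IER3 SEMA7A (0.494), and for IER5 FOXC2 (0.377) and FAM43A (0.497). CSRNP1 was nearest to JUN (0.493) and GADD45B (0.524), RHOB to KLF2 (0.19) and CCL20 (0.319), and SOCS3 to PPP1R15A (0.327) and CXCL8 (0.415). GPR3 was nearest to PLK2 and PIM1 (both 0.377), and IER5L, with its small changes, to ZNF383 and BTG3 (both 0.076). GEM had no such profile, since it was not tested in SAS RT. JUNB, JUN, GADD45B, KLF2, CCL20, PPP1R15A, CXCL8 and PLK2 are themselves on the lists of other immediate early genes that follow.

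Those lists were read beside the members in the line difference of the heat response without RT. Of 28 immediate early transcription factors 16 were higher in FaDu and 0 lower, with a median difference of 1.33, and of 27 feedback regulators 11 were higher and 1 lower, with a median of 0.94. Of 17 tested genes for secreted and surface proteins 5 were higher and 1 lower, with a median of 0.88; the members had a median of 1.51, and all genes tested one of 0.03, with 1.25% higher and 1.49% lower. Among the transcription factors EGR4 (6.32), EGR3 (5.003), EGR1 (4.00) and EGR2 (3.08) differed most, and FOS differed by 3.02. Among feedback regulators ARC (5.53) and DUSP1 (2.95), a phosphatase of MAP kinases, differed most, and among secreted proteins CYR61 (3.98) and the cytokine IL6 (2.31). NFKBIZ (-1.62) and the chemokine CXCL1 (-1.31) were the 2 genes of these lists that were lower in FaDu. With RT in both arms the counts were 14 higher and 0 lower of 28, 8 higher and 1 lower of 27, and 5 higher and 1 lower of 18, with medians of 1.17, 0.94 and 0.73 beside 0.64 for the members and -0.02 for all genes, of which 1.34% were higher and 2.02% lower.

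In HT against control the 3 lists had 18, 15 and 10 genes higher and 0 lower in FaDu, with medians of 1.69, 1.08 and 1.37 beside 2.60 for the members, where 4.29% of all genes were higher. In SAS 11, 10 and 5 genes were higher and 0, 1 and 0 lower, with medians of 0.51, 0.46 and 0.35 beside 0.64 for the members, where 5.31% of all genes were higher and 0.713% lower; the lower gene was DUSP6 (-1.53), a phosphatase of ERK. After RT alone the medians were 0.59, 0.52 and 0.50 in FaDu beside 1.11 for the members, and 0.22, 0.28 and 0.36 in SAS beside 0.48, with medians of all genes within 0.01 of 0. RT altered NFKBIZ (1.17) in FaDu, and DUSP2 (1.16) and CTGF (1.29) in SAS, the only genes of these 3 lists past both limits in those comparisons. DUSP2 was also altered in the heat by RT comparison of SAS (-1.25).

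**Figure D5:**
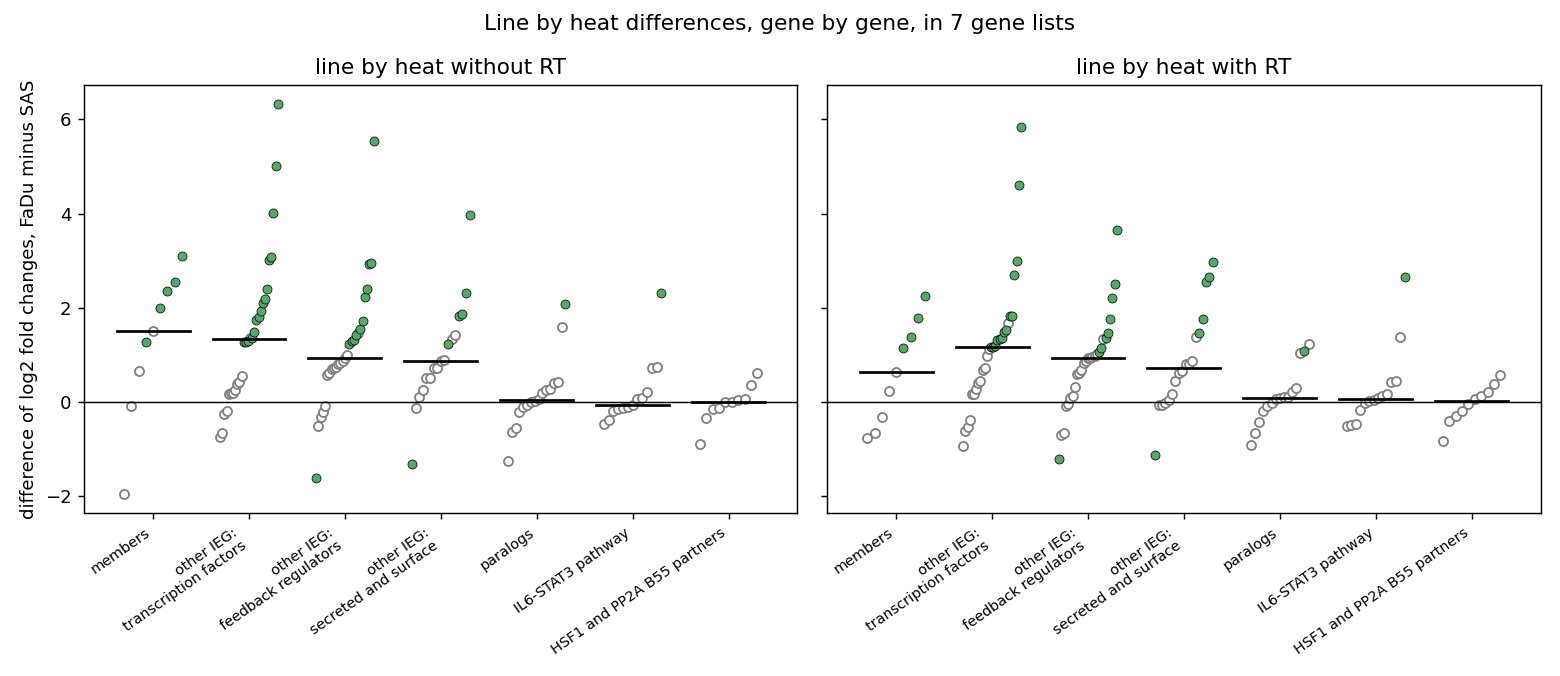
Difference between the FaDu and the SAS log2 fold change to heat, without RT (left) and with RT (right), for each gene of 7 lists; filled points passed both limits and bars mark the median of a list. Medians of the 3 lists of other immediate early genes (IEG) lie between 0.73 and 1.33, and those of paralogs, IL6-STAT3 genes and HSF1 and PP2A genes near 0.

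Close relatives of the members were read in the same comparisons. Of 19 paralogs 15 were tested in FaDu HT against control and 14 in SAS, and 3 were higher in each line and 0 lower, beside 4.29% and 5.31% of all genes higher. RRAD, an RGK-family GTPase like GEM, was at 5.401 (SE 0.21) in FaDu and 3.36 (SE 0.08) in SAS, with a line difference of 2.07 (SE 0.25). RND1 was at 2.66 and 3.33, whereas RHOA (0.17 and 0.13) and RHOC (0.22 and 0.06) were not altered. SOCS1 was at 1.71 and 2.99, and the other 6 tested relatives of SOCS3, SOCS2, SOCS4 to SOCS7 and CISH, lay between -0.18 and 0.53 in FaDu and between -0.18 and 0.56 in SAS. CSRNP2 was at 0.02 and 0.60, and GPR6, GPR12 and REM1 were too low to test in any comparison.

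Genes of the pathway that SOCS3 restrains were read beside it. Of 13 tested genes of the IL6-STAT3 pathway 2 were higher and 0 lower after HT in each line, IL6 (4.57 in FaDu and 2.30 in SAS) and IL11 (2.45 and 1.74), beside the same shares of all genes. OSM, a further cytokine, had 22 counts in FaDu controls and 16 after HT, and 0 in SAS controls and SAS HT. IL6 differed between the lines by 2.31 (SE 0.36) without RT and by 2.66 (SE 0.44) with RT. STAT3 was at -0.00 and -0.06, JAK1 at 0.14 and -0.06, and IL6ST, the shared receptor chain, at 0.03 and 0.54. Of the 10 genes for HSF1, HSF2 and subunits of PP2A, which IER5 brings together, 0 were altered after HT in either line. HSF1 was at 0.16 in FaDu and 0.12 in SAS, and PPP2CB, a catalytic subunit, at -0.10 and 0.83. In the untreated spheroids 1 of these 10 genes, PPP2R2C (2.51, adjusted p = 4.81e-05), was higher in FaDu than in SAS by edgeR's test. The 2 lower genes were PPP2R2B (-3.01, adjusted p = 3.44e-06) and HSF1 (-1.71, adjusted p = 4.29e-09), and IER5 was lower as well. Of all genes 21.2% were higher in FaDu there and 16.9% lower.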

How the data were processed

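RNA of 24 libraries (FaDu and SAS spheroids, 4 treatments, 3 replicates each) was sequenced on an Illumina NovaSeq instrument. The authors deposited raw counts per Ensembl gene for pairs of groups, in 7 tables; base calls were made with bcl2fastq, and the aligner, the counting program and the annotation are not stated in the material used here. The labels name a mouse build, which cannot be that of human gene identifiers, so no coordinate was taken from the count tables. Control columns that recur between tables were identical (18 columns, 0 differing). GENCODE v29 symbols matched 56898 genes; the other 602 hold 0.0217% of the counts. Library totals were 15203484 to 29452514.

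Counts were fitted in R 4.3.3 with edgeR 4.0.16 (TMM, filterByExpr with a minimum count of 10, quasi-likelihood test), using the groups of each comparison only, with Benjamini-Hochberg adjustment over all genes tested; a gene is altered if its adjusted p is below 0.05 and its log2 fold change beyond 1 in either direction. Interactions are differences of 2 such fold changes. The steps were tested on simulated data. Alternatives were DESeq2 1.42.0, RLE scaling, other low-count filters, all groups in 1 fit, the adjusted p alone, the replicate number as a block, and each library left out; leaving FaDu replicate 1 out of every group was added after seeing the data. Replicates come from independent experiments per the paper. Pairing by number was checked by the correlation of residuals across genes (over 0.1 in every pair of the same number) and held in each line for RT alone and for RT added to HT, and for the line by heat comparison with RT, line by RT and the other heat comparisons; it did not hold for FaDu against SAS controls, the line by heat comparison without RT, the heat by RT comparisons and SAS HT against control.

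Named genes are all members; any gene of the lists of paralogs, heat shock genes, IL6-STAT3 and HSF1 and PP2A; of the other immediate early genes, per direction the 4 with the largest absolute change among those altered in a heat comparison and any altered in other comparisons; and the 2 genes most like each member among genes averaging a log2 CPM of 1 or more, of which 1 for IER3 is not reported here. Marker genes are named as label checks. The members and lists were chosen with earlier results of these data known.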

Additional observations from a re-analysis of the deposited data

Results flagged for a closer look

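The difference between the lines in the heat response stood out for 5 members without RT: 3.11 for IER3, 2.55 for IER2, 2.36 for CSRNP1, 1.99 for RHOB and 1.28 for SOCS3, as FaDu minus SAS on the log2 scale. With RT in both arms it stood out for 4: 2.26 for IER3, 1.78 for CSRNP1, 1.39 for IER2 and 1.15 for RHOB. They were picked out by an interaction term in the fit over all genes. Since it is built from heat values known when the members were listed, it is no test for them and the values are a description. With RT, IER2 was no longer picked out in 11 and RHOB in 8 of the 12 fits without a replicate block that left out 1 library.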

How the results depend on the processing

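The values compared first are the log2 fold changes of the members, without the counts of altered members. Under other settings 867 of 900 kept their side of the thresholds. Of the rest, 1 fell short of a threshold passed before, 32 passed one newly and 0 reversed. For single left-out libraries the numbers were 1097, 19, 12 and 0 of 1128. Among those that kept their side, values that were not altered changed sign in 9 cases under other settings and in 35 with a library left out. The count of altered members in FaDu RT against control was 0 and became 6 without a filter on low counts, 3 with DESeq2, 6 with a replicate block and 3 without FaDu replicate 1, with 0 to 2 when 1 library was left out. In FaDu heat by RT it was 0 and became 4 without the filter, 1 with the block and 1 without FaDu replicate 1. With the adjusted p alone, members altered went from 0 to 1 in SAS RT against control, from 5 to 8 in SAS HT against control and from 4 to 8 in SAS HT+RT against RT, since the fold limit was dropped. In line by heat with RT the 4 altered members became 2 to 5 when 1 library was left out. Apart from these, the cause of a changed count was not tested. The block numbers replicates within each line, so it could not be fitted for the FaDu and SAS controls, where every library would be its own level with no residual degrees of freedom, and the fit of all groups was not run for the heat by RT comparisons. Low counts limit GEM without heat and GPR3 in SAS, where 2 to 56 counts per library set the precision.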

Other observations

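Other immediate early genes were compared between the untreated lines. Of 27 feedback regulators 3 were higher in FaDu and 15 lower (median -1.49), of 28 transcription factors 5 were higher and 11 lower (median -0.30), and of 17 tested genes for secreted and surface proteins 5 were higher and 9 lower (median -1.17), beside a median of 0.03 over all genes, of which 21.2% were higher in FaDu and 16.9% lower. THBS1 (-5.70), CYR61 (-5.57) and ARC (-5.22) were far lower in FaDu, whereas CXCL1 (5.68), NR4A3 (5.26) and CXCL8 (4.91) were far higher. RRAD was at -5.93, opposite in sign to its relative GEM. Of the heat shock genes used as a label check, HSPA6 had a larger heat response in FaDu than in SAS, by 1.98 without RT and by 2.27 with RT. The value without RT rests on 10, 10 and 7 counts in FaDu controls and 16, 6 and 18 in SAS controls. DNAJB1 differed by 0.76 and 0.63, HSPA1A by 0.27 and 0.32 and HSPA1B by 0.35 and 0.34, all under the fold limit. These genes were listed with earlier results of these data known, so their differences are a description without p values. COL1A1 differed in the direction opposite to HSPA6, by -3.76 without RT and -3.70 with RT.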
